A study of Macaca mulatta with 38 samples.

Results

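The 6 libraries described here compare cultures of 2 fetal ages, labelled as cortical neural stem cells, while they grew with FGF2. They are the E77 Frontal libraries of days 1, 3 and 5 in vitro set against the E42 Anterior libraries of the same days, 6 of the 38 bulk RNA-seq libraries in the series. They were chosen by their sample names and days, and no measured value entered the choice. The cells came from rhesus macaque (Macaca mulatta) fetuses of embryonic day 42 or 77, labelled wild type, from cortex dissected as anterior or as frontal. After enzymatic dissociation both grew attached in N2 medium with FGF2 at low oxygen, and the RNA of each library was pooled from 2 culture wells. The same culture series were later followed without FGF2, and E42 Posterior and E77 Occipital cultures were sampled on the same days.

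Each series gave 1 library per day, so the 3 libraries of a group differ in culture day and are not separate animals. The sources used here do not state how many fetuses were used at each age. Every difference below is therefore between 2 culture series, and fetal age, animal, dissection and culture cannot be told apart within it. The p-values measure the spread of libraries around their group means and shared day effects, estimated over all 38 libraries of the series.

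As background, cortical neurons and glia descend from radial glia, the neural stem cells that line the fetal ventricles. Early radial glia divide and give rise to neurons of the deep layers, often through intermediate progenitors that carry the transcription factor EOMES. Later in primates a second germinal layer fills with outer radial glia, and progenitors then turn towards astrocytes and oligodendrocyte precursors. FGF2 in the medium keeps such cells dividing in culture.

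The 6 libraries held 21324987 to 36801810 counted reads, with 34501388 to 36801810 at E42 Anterior and 21324987 to 24107755 at E77 Frontal. Levels are given as CPM, a gene's read count set against the size of its library, which TMM factors of 0.8989 to 1.104 adjusted, and 3 values in a row are those of days 1, 3 and 5. Differences are log2 values of E77 Frontal minus E42 Anterior with their standard error (SE), from 1 edgeR quasi-likelihood fit of all 38 libraries with the day as a block. Adjusted p-values are Benjamini-Hochberg values over the 20794 genes tested, and a gene passed below 0.05. LHX2, a selector gene of the cortex, stood at 81.3, 57.7 and 72.7 CPM at E42 Anterior and at 130.0, 97.5 and 94.9 CPM at E77 Frontal. All 6 libraries thus carried it. Reads of the HOX genes listed for hindbrain and spinal cord, and of the haemoglobin genes in the file, were 0 in all 6. The 13 listed genes of midbrain, hindbrain and spinal cord together summed to 14.7, 7.55 and 9.62 CPM at E42 Anterior. At E77 Frontal they summed to 3.72, 4.59 and 6.69 CPM. Of the 7 tested, 4 were lower and 0 higher (median -1.04), against 28.2% and 26.6% of all genes.

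Genes of connective tissue set the E42 Anterior libraries apart from the 9 other stem-phase libraries. COL1A1, a chain of type I collagen made by fibroblasts, stood at 7841, 15243 and 16319 CPM at E42 Anterior and at 55.2, 45.3 and 38.8 CPM at E77 Frontal. COL3A1, the chain of type III collagen, stood at 4854, 5569.5 and 11359 CPM and at 2.81, 3.44 and 2.18 CPM. Both were high in every E42 Anterior library and low in every E77 Frontal library, and at E42 Posterior COL1A1 stood at 90.5, 122 and 29.3 CPM. The 22 tested genes of fibroblasts and meninges (the connective tissue membranes of the brain) summed to 19547, 32089.6 and 42555 CPM at E42 Anterior. The same sum was 644, 705 and 852 CPM at E77 Frontal, 475, 570.2 and 312 CPM at E42 Posterior and 746, 704 and 725 CPM at E77 Occipital. The collagens listed took 3.39 to 5.31% of all reads at E42 Anterior and 0.192 to 0.236% at E77 Frontal. These sums fall into 1 high series and 3 low ones. The 17 genes of radial glia, the neural stem cells of the cortex, summed to 14327, 11561 and 11677 CPM at E42 Anterior and to 19704, 16602 and 19058 CPM at E77 Frontal. The E42 Anterior libraries thus held RNA of both lists, and the label of neural stem cells does not cover their connective tissue genes. They are measured facts that accompany every difference given below, and their part in those differences was not tested.

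**Figure D1:**
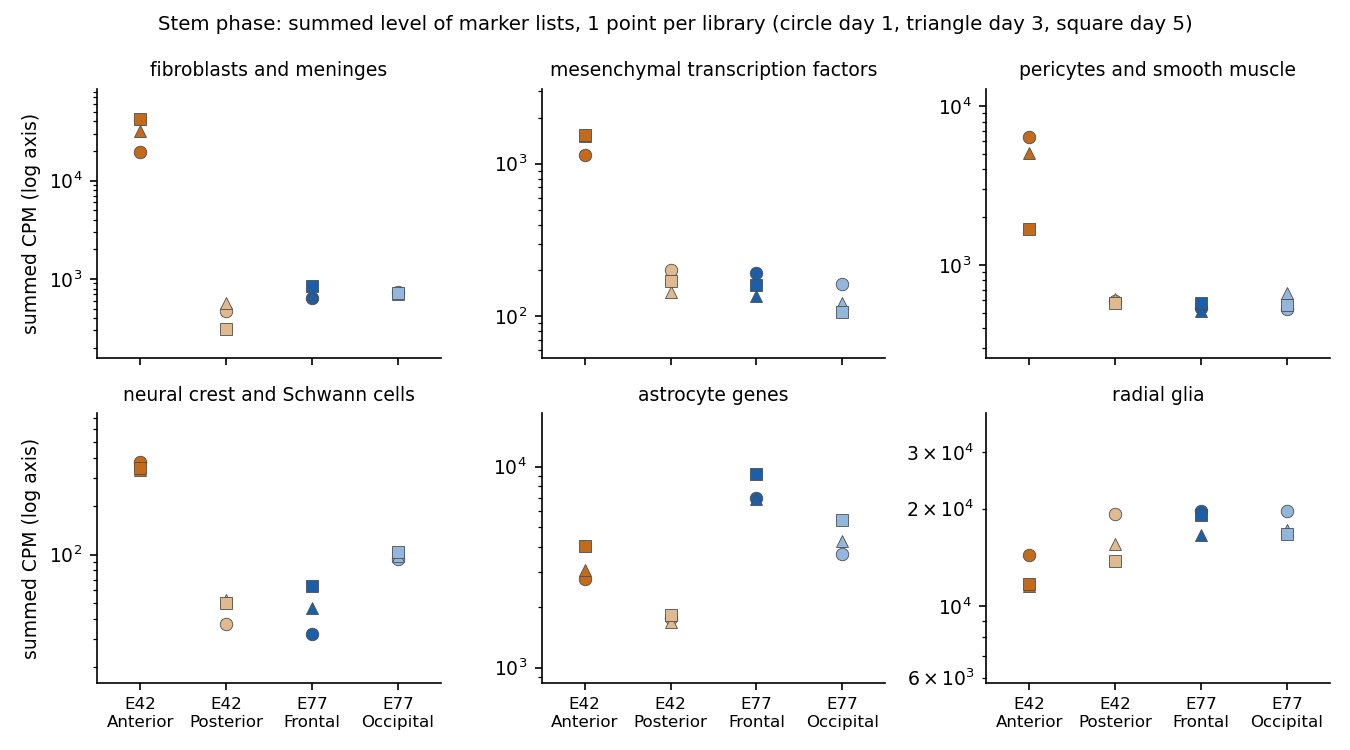
Summed CPM (log axis) of 6 marker lists in the 12 stem-phase libraries, 1 point per library, with a circle for day 1, a triangle for day 3 and a square for day 5. The 4 lists of fibroblasts, mesenchymal transcription factors, pericytes and neural crest are high in all 3 E42 Anterior libraries and low in the other series, while astrocyte genes are highest at E77 Frontal.

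Across the transcriptome 5536 genes (26.6% of those tested) were higher at E77 Frontal and 5858 (28.2%) were lower, 54.8% in all. Of these, 2977 were over 1 log2 unit higher and 2216 over 1 unit lower, while 408 and 748 were over 3 units apart. Fewer genes were thus lower by over 1 unit than higher, but more were lower by over 3 units. The 3 libraries of one series lay wholly above the 3 of the other for 5767 genes higher at E77 Frontal (27.7%) and 5397 lower (26.0%). The balance of directions depended on the scaling. With upper-quartile factors, which move the median gene from -0.007 to 0.123, the counts were 6976 higher and 4440 lower. With library totals alone, which move it to 0.21, they were 8046 and 3642, and limma on log2(RPKM + 1) gave 6854 and 3187.

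Gene lists are described by their tested members, since genes with too few reads in every group were not tested. Tested were 3 of 12 microglial, 5 of 10 skin, 9 of 11 endothelial, 12 of 16 ventral forebrain, 18 of 20 FGF ligand and receptor and 9 of 10 housekeeping genes. In the lists of late progenitors, GABAergic neurons, mesenchymal transcription factors, rostral patterning, WNT, TGF-beta, insulin-like growth factors, hedgehog and interferon 1 gene each was not tested or not in the table. Of 18 listed genes of choroid plexus and cortical hem 16 were tested. The other lists counted below were tested whole, apart from the haemoglobins. Counts of list members that rose or fell stand against 26.6% of all genes higher and 28.2% lower at E77 Frontal. Between E77 Occipital and E42 Posterior these shares were 20.2% and 20.6%.

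Radial glial genes were mostly higher at E77 Frontal. Of 17 listed, 12 rose and 0 fell, with a median difference of 0.55 against -0.007 over all genes. SOX2, a transcription factor of neural stem cells, stood at 411, 348 and 407 CPM at E42 Anterior and at 555, 523 and 652 CPM at E77 Frontal. Every E77 Frontal library was above every E42 Anterior library, and the difference was 0.57 ± 0.098 (SE, adjusted p = 2.60e-05). CDH2, the N-cadherin of apical junctions, stood at 576, 501 and 460.0 CPM and at 1212, 943 and 1037 CPM. Its levels did not overlap between the series either, and its difference was 1.05 ± 0.091 (adjusted p = 5.63e-10). The membrane protein TTYH1 differed by 1.04 ± 0.16, the intermediate filament gene NES by 0.77 ± 0.18 and the glial lipid-binding protein FABP7 by 0.63 ± 0.12. HES1 and HES5, Notch-driven repressors that hold progenitors undifferentiated, did not pass, with differences of -0.0033 ± 0.13 and -0.54 ± 0.30. In the occipital and posterior pair the same list had 6 genes higher (20.2% of all genes were) and 5 lower (20.6%).

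**Figure D2:**
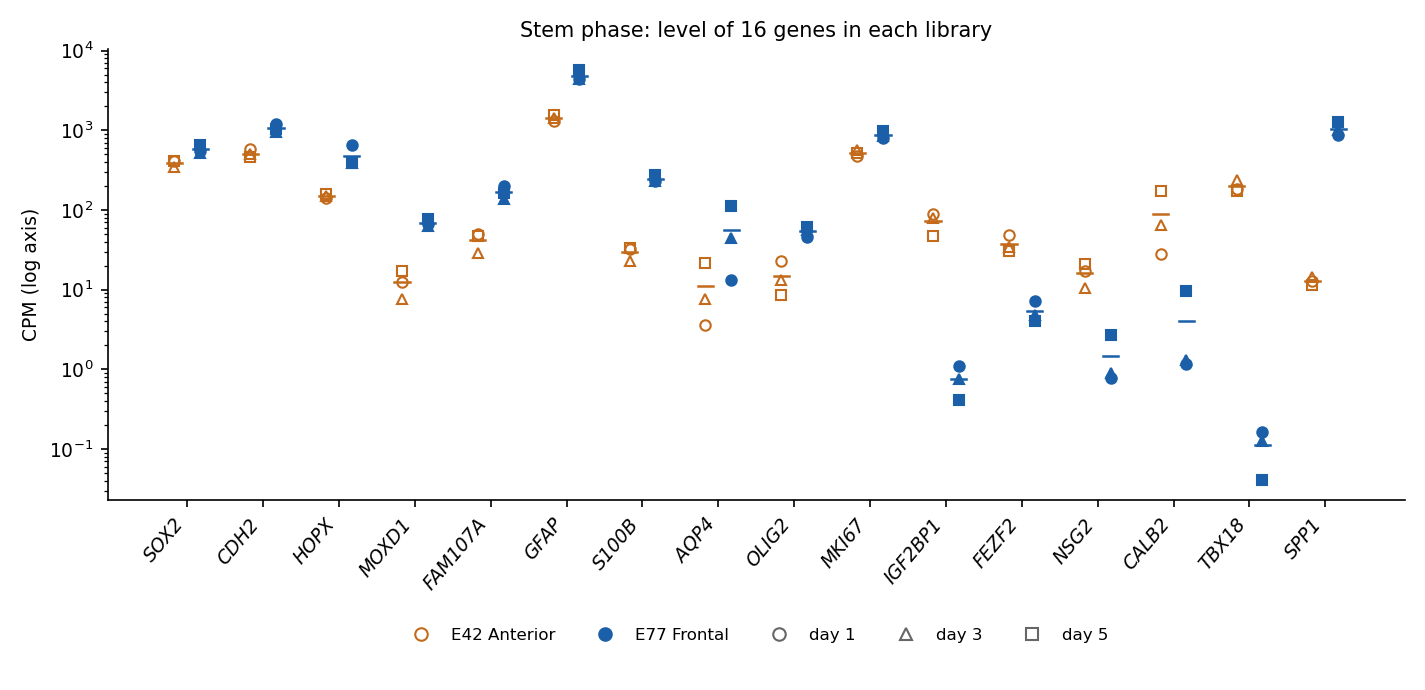
CPM (log axis) of 16 genes named in the text, with open symbols for the 3 E42 Anterior and filled symbols for the 3 E77 Frontal libraries and a bar at each mean. The symbols of the 2 series do not overlap for any of these genes except AQP4, whose level on day 5 at E42 Anterior is above that on day 1 at E77 Frontal.

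Most listed genes of outer radial glia were higher too. Of 12 listed, 8 rose and 2 fell, with a median of 0.70. HOPX, a homeodomain protein that marks outer radial glia, stood at 142, 148 and 158 CPM at E42 Anterior and at 654, 386 and 386 CPM at E77 Frontal. MOXD1, a monooxygenase-like marker of the same cells, stood at 12.4, 7.68 and 17.4 CPM and at 67.2, 62.5 and 76.7 CPM, and FAM107A, an actin-associated marker, at 49.6, 29.3 and 47.9 CPM and at 202, 136 and 164 CPM. For each of the 3 the lowest E77 Frontal library lay above the highest E42 Anterior library. The differences were 1.59 ± 0.19 for HOPX, 2.50 ± 0.22 for MOXD1 and 1.97 ± 0.24 for FAM107A, with adjusted p from 1.86e-09 to 3.80e-07. The matrix glycoprotein TNC was higher by 1.80 ± 0.28 and the endocytic adaptor STON2 by 1.79 ± 0.14. FBN2 and PDGFD, a fibrillin and a growth factor that are also made by connective tissue cells, went the other way, with differences of -2.48 ± 0.19 and -2.13 ± 0.27. Of the 12, 7 passed as higher and 0 as lower between E77 Occipital and E42 Posterior, against 20.2% and 20.6% of all genes. The gain was larger in the frontal and anterior pair for HOPX (by 1.02 ± 0.26, adjusted p = 0.00513), FAM107A (by 1.68 ± 0.33, adjusted p = 0.000578) and MOXD1 (by 1.35 ± 0.29, adjusted p = 0.0014). That of HOPX did not pass without day 1 in any series (0.68, adjusted p = 0.0676 from edgeR), nor that of FAM107A without the day block (adjusted p = 0.0518).

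Genes known to be high in early cortical progenitors were mostly lower, and genes known to come on late were mostly higher. Of 13 early genes 9 fell and 1 rose, with a median of -0.94. IGF2BP1, an RNA-binding protein of fetal tissues, stood at 90.2, 78.5 and 47.6 CPM at E42 Anterior and at 1.12, 0.765 and 0.411 CPM at E77 Frontal. All 3 libraries of the older series were near 1 CPM or below, and the difference was -6.56 ± 0.33 (adjusted p = 1.36e-13). The occipital and posterior pair gave -8.03 ± 0.39 for the same gene, and the difference between the pairs did not pass (adjusted p = 0.1). LIN28B, a let-7 inhibitor, was lower, with a log2 difference of -3.01 ± 0.59 from a low level of 0.351, 0.514 and 0.514 CPM, and the chromatin protein HMGA2 (-1.03 ± 0.30). HMGA2 did not pass without E77 Frontal day 1 (-0.67, adjusted p = 0.0802 from edgeR) or without the day block (adjusted p = 0.0548). HMGA1 was the one listed early gene that rose, by 1.45 ± 0.17. It did not pass in the other pair (-0.40 ± 0.17, adjusted p = 0.0538), and the pairs differed (adjusted p = 2.14e-06).

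Of 11 late genes 9 rose and 0 fell, and the list median was 0.82. HEPACAM, a glial adhesion protein, stood at 52.3, 38.8 and 54.9 CPM at E42 Anterior and at 250.2, 219 and 268 CPM at E77 Frontal. PRDM16, a regulator of radial glia, stood at 106, 98 and 115 CPM and at 240.0, 238 and 232 CPM. In both genes the series did not overlap, and the differences were 2.34 ± 0.16 and 1.16 ± 0.096. The POU factors POU3F2 and POU3F3 were higher by 1.13 ± 0.098 and 0.82 ± 0.084, and SOX9 by 0.75 ± 0.14. NFIB and NFIX, nuclear factors of gliogenesis, passed at 0.36 ± 0.097 and 0.41 ± 0.11, whereas NFIA did not (0.11 ± 0.091, adjusted p = 0.303). NFIB did not pass without E42 Anterior day 1, without E77 Frontal day 3 or without the day block, nor NFIX without E77 Frontal day 5. NFIA depended on the scaling and passed as higher with upper-quartile factors (0.24, adjusted p = 0.0274 from edgeR) and library totals (0.33, adjusted p = 0.00315). It also passed in limma on log2(RPKM + 1) (0.32, adjusted p = 0.00304).

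Astrocyte genes were higher, with exceptions. Of 16 listed, 10 rose and 1 fell, with a median of 1.42. GFAP, the astrocyte intermediate filament that primate radial glia also make, stood at 1307, 1435 and 1558 CPM at E42 Anterior and at 4446, 4433 and 5772 CPM at E77 Frontal. S100B, a calcium-binding protein of astrocytes, stood at 32.8, 22.6 and 33.4 CPM and at 233, 233 and 276 CPM. Every E77 Frontal library was above every E42 Anterior library for both genes, and the differences were 1.77 ± 0.19 and 3.08 ± 0.15 (adjusted p = 2.65e-08 and 1.20e-14). AQP4, the water channel of astrocyte endfeet, stood at 3.64, 7.58 and 21.8 CPM and at 13.2, 44.7 and 112 CPM. It climbed over the days in both series, so that the groups overlapped, and its difference at equal days was 2.29 ± 0.27 (adjusted p = 2.29e-07). The hyaluronan receptor CD44 was higher by 2.78 ± 0.42, the gap-junction gene GJB6 by 2.40 ± 0.37 and the glutamate transporter SLC1A2 by 2.11 ± 0.21. APOE, the lipid carrier made by astrocytes and also by fibroblasts and macrophages, went against the list at 618, 728 and 1111 CPM and 58.6, 87 and 217 CPM. It was high in the 3 E42 Anterior libraries, with a difference of -2.99 ± 0.33 (adjusted p = 1.53e-07). Its difference in the occipital and posterior pair was 3.32 ± 0.34, in the opposite direction, and the 2 differed (adjusted p = 3.07e-09). Of the astrocyte genes not passing, GJA1 and ID4 had the highest levels, with differences of 0.46 ± 0.35 and -0.20 ± 0.21.

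Genes of the oligodendrocyte lineage did not share a direction. Of 14 listed, 6 rose and 4 fell, with a median of 0.10. OLIG2, the factor that specifies oligodendrocyte precursors, stood at 22.9, 13.1 and 8.68 CPM at E42 Anterior and at 45.8, 55.8 and 61.4 CPM at E77 Frontal. The older series was higher on each day, by 1.96 ± 0.27 (adjusted p = 2.51e-06). OLIG1 was higher by 2.03 ± 0.27, the cadherin PCDH15 by 1.98 ± 0.19 and the precursor marker LHFPL3 by 1.73 ± 0.18. CSPG4, the NG2 proteoglycan of precursors and also of pericytes, stood at 189, 198 and 100.1 CPM and at 12.9, 17 and 17.9 CPM, with a log2 difference of -3.30 ± 0.38. SOX10, shared with neural crest, was lower, with a log2 difference of -1.35 ± 0.43, and the myelin gene MBP (-2.34 ± 0.49). SOX10 did not pass without E77 Frontal day 5 (-0.89, adjusted p = 0.123 from edgeR), without E42 Anterior day 1 (-1.17, adjusted p = 0.0536) or without the day block (adjusted p = 0.0703). PDGFRA, the receptor of precursors that mesenchyme also carries, did not pass (0.23 ± 0.29, adjusted p = 0.514). Without E42 Anterior day 5, however, PDGFRA passed as higher (0.99, adjusted p = 4.67e-05 from edgeR). At E42 Anterior it climbed from 130.4 to 689 CPM over the days. Between E77 Occipital and E42 Posterior 8 of these 14 genes rose and 1 fell.

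Most pan-neuronal genes were lower. Of 16 pan-neuronal genes 10 fell and 3 rose, with a median of -0.96. Their summed level did not follow this count, at 1905, 2216 and 3834 CPM at E42 Anterior and 2415, 2451 and 3305 CPM at E77 Frontal. The sum was thus higher at E77 Frontal on days 1 and 3 and lower on day 5. TUBB3, the neuronal beta-tubulin, stood at 81.5, 188 and 490.2 CPM at E42 Anterior and at 19, 60.4 and 224 CPM at E77 Frontal. It climbed with the days in both series and was lower at E77 Frontal on each day, with a log2 difference of -1.59 ± 0.32 (adjusted p = 0.000312). NSG2, a neuronal vesicle protein, stood at 17.3, 10.6 and 21.3 CPM and at 0.785, 0.893 and 2.71 CPM, without overlap and with a log2 difference of -3.66 ± 0.32. MYT1L, a transcription factor of postmitotic neurons, was lower, with a log2 difference of -4.65 ± 0.40. DCX, the microtubule protein of migrating neurons, stood at 299, 485 and 1078 CPM and at 297, 506 and 1028 CPM, and did not pass, with a difference of -0.0073 ± 0.14 (adjusted p = 0.968). The neurofilament gene NEFL and the growth-cone gene GAP43 were higher, by 2.25 ± 0.37 and 1.75 ± 0.40. In the fit without the day block 6 pan-neuronal genes passed as lower instead of 10, and TUBB3 did not pass (adjusted p = 0.117).

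Genes of excitatory cortical neurons were mostly lower, whereas most genes of inhibitory neurons did not pass. Of 15 glutamatergic genes 12 fell and 2 rose, with a median of -2.75. FEZF2, the specifier of deep-layer neurons that early radial glia also carry, stood at 48, 34 and 30.7 CPM at E42 Anterior and at 7.15, 4.8 and 4.07 CPM at E77 Frontal. It was lower in all 3 libraries of the older series, with a log2 difference of -2.82 ± 0.23 (adjusted p = 3.93e-10). NEUROD6 and NEUROD2, factors of young excitatory neurons, were lower, with log2 differences of -4.01 ± 0.43 and -4.10 ± 0.58 from low levels, NEUROD6 standing at 3, 1.63 and 2.3 CPM and at 0.0826, 0.17 and 0.164 CPM. RORB, a marker of middle layers, was higher by 1.5 ± 0.21 and the trophic factor NRN1 by 1.54 ± 0.38.

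Of 14 GABAergic genes 2 rose and 3 fell, and the list median was -0.30. The precursor factors DLX1 and DLX2 did not pass, with differences of -0.48 ± 0.26 and -0.43 ± 0.28, while GAD1, the enzyme that makes GABA, was higher by 0.69 ± 0.25. CALB2, the calcium-binding protein calretinin, stood at 28.2, 64.7 and 173 CPM and at 1.16, 1.32 and 9.61 CPM, with a log2 difference of -4.63 ± 0.46. Its level climbed over the days at E42 Anterior, and the 2 series did not overlap. In the occipital and posterior pair 13 of the 14 GABAergic genes were lower and 0 higher. The 2 age differences themselves differed for 7 GABAergic genes (9.76% of all genes passed in this direction), each less negative or more positive in the frontal and anterior pair. None of the 7 passed without the day block, and the count was 4 without E77 Frontal day 5. The 2 rises between E77 Frontal and E42 Anterior, GAD1 among them, were lost without E42 Anterior day 1 or without E77 Frontal day 1. GAD1 did not pass without E42 Anterior day 5, without E77 Frontal day 3 or without the day block either.

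Intermediate progenitor genes showed no common direction, with 2 of 10 higher and 4 lower. EOMES stood at 5.72, 4.8 and 12.7 CPM at E42 Anterior and at 3.39, 9.9 and 12 CPM at E77 Frontal. The 2 series overlapped, and the difference was 0.062 ± 0.44 (adjusted p = 0.916). At E42 Posterior the same gene stood at 13.7, 43.4 and 113 CPM, against 0.0391, 0.587 and 1.46 CPM at E77 Occipital. That difference was -6.21 ± 0.57, and the pairs differed by 6.27 ± 0.73 (adjusted p = 1.66e-06). INSM1, a factor of dividing neuronal precursors, was higher by 0.49 ± 0.16, and NHLH1 and ELAVL4, which come on as neurons form, were lower, with log2 differences of -2.32 ± 0.48 and -0.78 ± 0.18. The 4 lower calls became 2 without E42 Anterior day 1 or without E77 Frontal day 1, and 1 without the day block. The 2 higher calls, INSM1 and PPP1R17, were both lost without E42 Anterior day 1, without E77 Frontal day 3, without E77 Frontal day 5 and without the day block, and PPP1R17 also without E42 Anterior day 5 or E77 Frontal day 1. ELAVL4 was at -0.48 without E77 Frontal day 1 and did not pass without the day block.

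**Figure D3:**
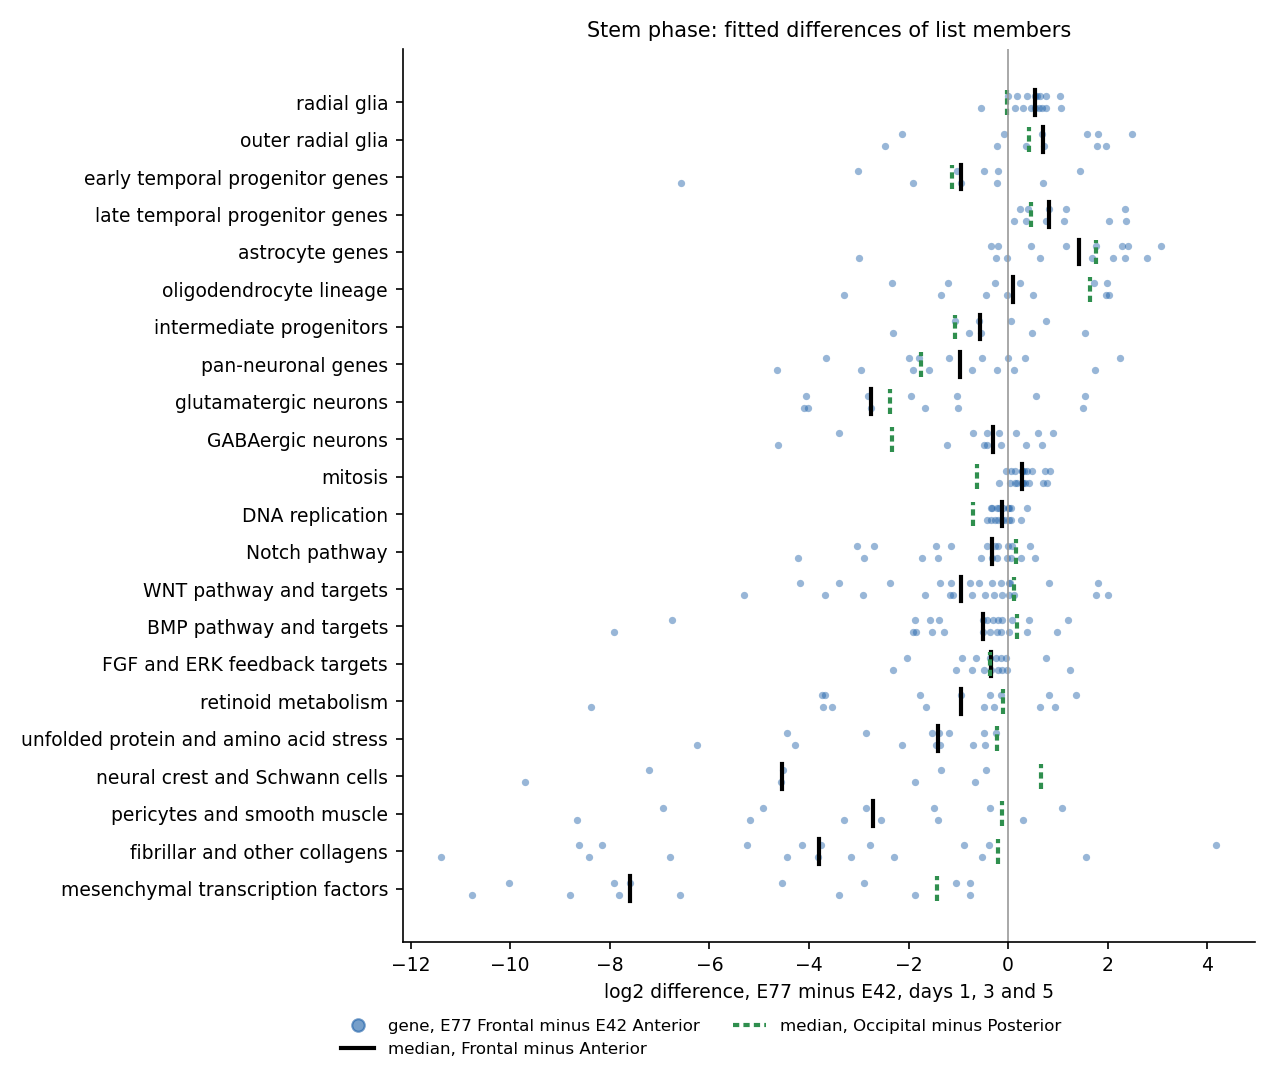
Fitted log2 differences of the tested members of 22 lists (blue points, E77 Frontal minus E42 Anterior), with the list medians of that pair (black bars) and of E77 Occipital minus E42 Posterior (green broken bars). Genes with at most 3 reads in a group have no point, and the lists of mesenchyme, collagens, pericytes and neural crest have black bars far to the left of their green ones.

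Most cell-cycle genes did not pass. Of 20 mitotic genes 7 rose and 0 fell, not far from the 26.6% of all genes that rose, and the list median was 0.29. MKI67, the proliferation antigen, stood at 482, 575 and 515 CPM at E42 Anterior and at 802, 839.8 and 974 CPM at E77 Frontal, without overlap, and was higher by 0.73 ± 0.13 (adjusted p = 6.25e-05). ASPM, a spindle-pole protein needed for symmetric progenitor divisions, was higher by 0.84 ± 0.21, and the kinetochore proteins CENPF and CENPE by 0.78 ± 0.16 and 0.71 ± 0.20. CENPE no longer passed without E42 Anterior day 5 (0.50, adjusted p = 0.0729 from edgeR). TOP2A and PLK1, the genes with the highest levels among those not passing, differed by 0.32 ± 0.16 and 0.14 ± 0.093. The count of 7 moved with the processing. It was 3 without E42 Anterior day 5, 4 without E77 Frontal day 1, 3 without day 1 in any series and 4 without the day block, but 13 with upper-quartile factors and 15 with library totals.

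Of 18 replication genes 2 rose and 3 fell, and the list median was -0.12, which turned positive with upper-quartile factors (0.014) and with library totals (0.10). The 3 falls were 0 without E42 Anterior day 3, with upper-quartile factors, with library totals and without the day block, and the 2 rises were 1 without E42 Anterior day 1. The helicase subunit MCM6 was lower, with a log2 difference of -0.43 ± 0.14, and the nucleotide reductase RRM2 was higher by 0.38 ± 0.12. Neither passed without E77 Frontal day 1 or without the day block, MCM6 did not without E42 Anterior day 3, and RRM2 did not without E42 Anterior day 1. PCNA, the polymerase clamp, stood at 172, 138 and 117 CPM and at 169, 126 and 138 CPM, and the series overlapped. In the occipital and posterior pair, 16 of the 20 mitotic and 17 of the 18 replication genes were lower at E77, and none was higher. The difference between the pairs passed for all 20 mitotic genes and for 11 replication genes, each in the positive direction. Without the day block these counts were 10 and 5, and without day 1 they were 11 and 14. Without E42 Anterior day 5 they were 14 and 10.

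**Figure D4:**
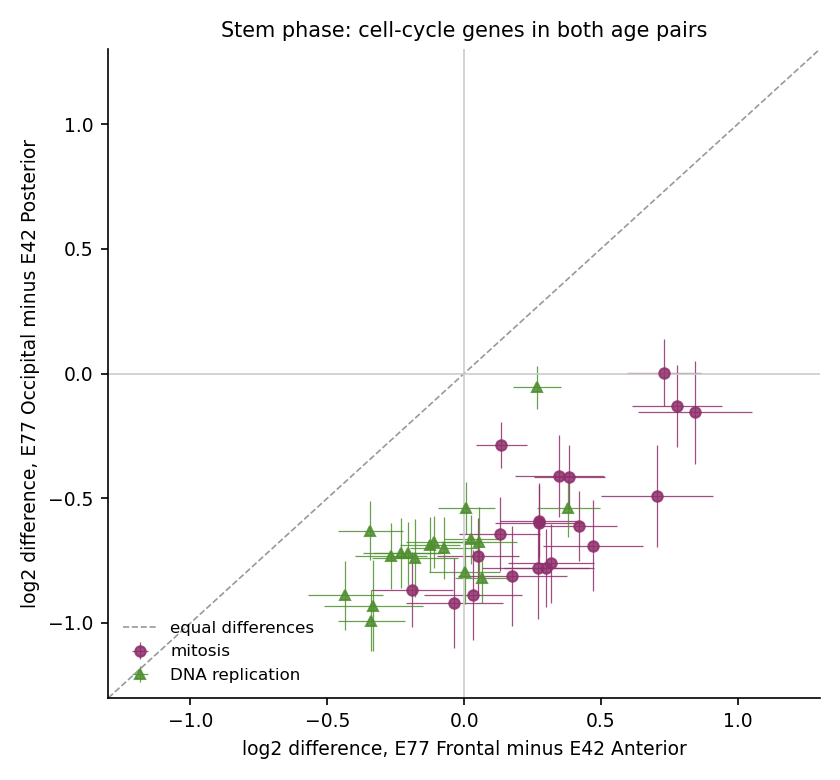
Log2 difference of each mitotic gene (circles) and replication gene (triangles) between the ages in the frontal and anterior pair (horizontal) and in the occipital and posterior pair (vertical), with bars of 1 SE and a broken line of equal differences. All 38 points lie below the line, and most lie between -1 and 0 on the vertical axis.

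Among mesenchymal transcription factors 17 of 19 fell and 0 rose, with a median of -7.59, or -6.58 when 3 genes with 0 reads at E77 Frontal were set to their bound. FOXC1, a factor of head mesenchyme and meninges, stood at 158, 219 and 144 CPM at E42 Anterior and at 0.454, 0.383 and 0.328 CPM at E77 Frontal. TBX18, a T-box factor of mural and meningeal cells, stood at 185, 237 and 172 CPM and at 0.165, 0.128 and 0.0411 CPM. In both genes the older series was below 1 CPM in every library, and the differences were -8.79 ± 0.23 and -10.77 ± 0.37 (adjusted p = 6.07e-20 and 2.55e-16). TBX15 had 0 reads in the 3 E77 Frontal libraries against 27.5, 49.9 and 55.8 CPM, at least 1067-fold lower when 3 reads are allowed over the group. ALX4 and MSX1, homeodomain factors of craniofacial mesenchyme, were lower, with log2 differences of -10.03 ± 0.40 and -7.91 ± 0.40. TWIST2 and SNAI1 did not pass and were below 0.6 CPM in all 6 libraries. In bulk RNA, fewer cells of a type and less RNA per cell cannot be told apart.

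Further lists of connective tissue cells were lower too. Of the 22 genes of fibroblasts and meninges 19 fell and 1 rose, with a median of -5.80, of 12 genes of pericytes and smooth muscle 10 fell and 1 rose, with a median of -2.70, and of 10 genes of neural crest and Schwann cells 9 fell and 0 rose, with a median of -4.55. LUM, a collagen-binding proteoglycan, stood at 142, 311 and 552 CPM and at 0.454, 0.17 and 0.246 CPM, with a log2 difference of -10.05 ± 0.55. ACTA2, the actin of smooth muscle, stood at 2024, 1084 and 117 CPM and at 2.89, 1.7 and 1.68 CPM. Its level fell over the days at E42 Anterior, but the lowest of them stayed above all 3 of E77 Frontal, and the difference was -8.65 ± 0.68. NGFR, the low-affinity neurotrophin receptor of neural crest, was lower, with a log2 difference of -9.70 ± 0.56, and the crest factor TFAP2A (-7.22 ± 0.42). S100A6 went against its list and was higher by 2.89 ± 0.24. Endothelial genes went in both directions, with 3 of 9 higher and 4 lower, against 26.6% and 28.2% of all genes. PECAM1, an adhesion molecule of endothelium and platelets, was higher at 18.1, 16 and 15.8 against 1.56, 1.03 and 1.3 CPM. FLT1, a VEGF receptor, was lower, with a log2 difference of -7.53 ± 0.42, and KDR did not pass (-0.15 ± 0.44). CDH5, the cadherin of endothelial junctions, stood at 0.0319, 0.967 and 0.726 CPM at E42 Anterior and had 2 reads in all at E77 Frontal.

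In the occipital and posterior pair the list medians were -1.42 for fibroblasts and meninges, -1.44 for mesenchymal transcription factors, -0.11 for pericytes and 0.67 for neural crest. The 2 age differences differed in the negative direction (12.2% of all genes did) for 13 of 22, 8 of 19, 9 of 12 and 7 of 10 members of these lists. Markers of microglia and of skin were at low levels. The 12 listed genes of microglia and macrophages, tested or not, summed to 2.63 to 2.97 CPM at E42 Anterior and 3.15 to 5.16 CPM at E77 Frontal. The lysosomal CD68 was among them. The 10 listed genes of skin and epithelium, tested or not, summed to 1.76 to 2.6 and 2.64 to 3.02 CPM. TTR, the marker of choroid plexus, was at 0.735, 1.33 and 0.393 CPM at E42 Anterior and had 0 reads at E77 Frontal. Its list, which also holds genes of the cortical hem, summed to 189, 158 and 211 CPM and to 84.4, 70.9 and 81.6 CPM. Of its 16 tested genes 10 fell and 0 rose (median -2.24), against 28.2% and 26.6% of all genes. In the occipital and posterior pair 10 of the 16 fell and 1 rose.

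Matrix genes were mostly lower at E77 Frontal. Of 18 collagen genes 14 fell and 2 rose, with a median of -3.79, and of 28 other matrix genes 21 fell and 2 rose, with a median of -3.71. COL4A1, a basement membrane collagen, stood at 3620.3, 4087 and 1757 CPM at E42 Anterior and at 203, 154 and 158 CPM at E77 Frontal, with a log2 difference of -4.13 ± 0.19. FN1, fibronectin, stood at 8769, 14475 and 12262 CPM and at 768, 423 and 428 CPM, with a log2 difference of -4.50 ± 0.35. BGN, the proteoglycan biglycan, stood at 1058, 1785 and 1750.2 CPM and at 0.95, 1.28 and 0.657 CPM, with a log2 difference of -10.69 ± 0.46. For all 3 the E42 Anterior libraries were well above the others without overlap. COL9A3, a chain of type IX collagen, was the reverse, at 4.79, 5.47 and 8.19 CPM and 136, 97.8 and 101 CPM, higher by 4.17 ± 0.30. TNC, given above with outer radial glia, and the hyaluronan link protein HAPLN1 (1.22 ± 0.40) were the 2 other matrix genes that rose, and HAPLN1 did not pass without E42 Anterior day 1 (0.55, adjusted p = 0.149 from edgeR) or without E77 Frontal day 1 (0.99, adjusted p = 0.0616). The medians of both lists were -0.19 and -0.05 in the occipital and posterior pair. The age differences differed, more negative at the front, for 14 of the 18 collagens and 22 of the 28 other matrix genes (background 12.2%).

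Regional identity genes were tested because the dissections were named anterior and frontal. Rostral patterning genes had 4 of 18 higher and 7 lower (median -0.29). They had 2 higher and 11 lower without E42 Anterior day 1, and 2 higher without E77 Frontal day 1. Caudal genes had 4 of 16 higher and 8 lower (median -0.42). Over all genes 26.6% were higher and 28.2% lower, and the higher counts of both lists lay near that share. NR2F1, the COUP-TFI receptor that is graded towards the caudal cortex, stood at 51.1, 52.8 and 103 CPM at E42 Anterior and at 7.93, 8.84 and 9.94 CPM at E77 Frontal. NR2F2, its relative in caudal and ventral cortex and also in mesenchyme and veins, stood at 364, 347 and 204 CPM and at 1.65, 1.11 and 1.85 CPM. Both were low in every E77 Frontal library, with differences of -2.92 ± 0.20 and -7.64 ± 0.28 (adjusted p = 2.68e-11 and 1.37e-15). NR2F1 stood at 171, 184 and 194 CPM at E42 Posterior and at 210.5, 237 and 203 CPM at E77 Occipital, so that E77 Frontal was the lowest of the 4 series. That pair did not pass (0.26 ± 0.18, adjusted p = 0.254), and the pairs differed (adjusted p = 5.24e-09). The cortical selector genes LHX2 and EMX2 were higher by 0.60 ± 0.14 and 0.44 ± 0.14, and TFAP2C by 2.06 ± 0.26. EMX2 did not pass without E42 Anterior day 3, without E77 Frontal day 1 or without the day block. SP8 and ETV1, rostral factors with high levels, did not pass (-0.16 ± 0.12 and -0.24 ± 0.19). SIX3, an early rostral factor, was lower, with a log2 difference of -3.74 ± 0.47 from 2.33, 1.66 and 1.66 CPM. Of the ventral forebrain and diencephalic genes 7 of 12 fell and 1 rose (median -1.46), with ISL1, a factor of striatal and crest-derived neurons, at a log2 difference of -3.47 ± 0.47 and ZIC2 (-1.91 ± 0.20).

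FGF signalling was read from its receptors and its feedback genes, since FGF2 was in the medium of all 6 libraries. Of 18 ligands and receptors 7 rose and 3 fell (median 0.28), against 26.6% of all genes higher and 28.2% lower. FGFR3, a receptor of caudal progenitors and astrocytes, stood at 45.5, 39.2 and 36.3 CPM at E42 Anterior and at 73.6, 94.1 and 107 CPM at E77 Frontal, higher without overlap by 1.17 ± 0.14. FGFR2 and FGFR1 were higher by 0.87 ± 0.21 and 0.45 ± 0.13, and the decoy receptor FGFRL1 by 0.93 ± 0.17. FGFR1 did not pass without E42 Anterior day 1 (0.24, adjusted p = 0.128 from edgeR) or without E77 Frontal day 1 (0.28, adjusted p = 0.0992). Among 17 feedback genes induced by ERK signalling 7 fell and 2 rose (median -0.34). DUSP6, the phosphatase that dampens ERK, stood at 81, 53.5 and 55.3 CPM and at 49.1, 9.78 and 8.5 CPM, with a log2 difference of -2.04 ± 0.34 (adjusted p = 3.34e-05). The gap was smallest on day 1, and the series did not overlap. SPRY1, a receptor kinase inhibitor, stood at 106, 85.5 and 86.4 CPM and at 87.2, 40.8 and 27.7 CPM. Its series overlapped through E77 Frontal day 1, and the difference was -1.04 ± 0.22. Neither gene passed without the day block. Over the list, the median of the daily log2 ratios (with 0.5 CPM added) was -0.11, -0.36 and -0.75. The 7 calls became 12 without E42 Anterior day 1 and 1 without the day block.

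Notch genes were more often lower than higher. Of 21 listed, 10 fell and 1 rose (median -0.32). NOTCH3, the receptor of mural cells that progenitors also carry, stood at 1059.8, 921 and 758 CPM and at 313, 338 and 379 CPM, with a log2 difference of -1.41 ± 0.17. NOTCH1, the receptor of radial glia, stood at 835, 729 and 639 CPM and at 1066, 1052 and 1084 CPM, higher by 0.55 ± 0.097. The 2 receptors thus differed in opposite directions with no overlap in either. The target repressors HEYL and HEY2, which vascular cells also carry, were lower, with log2 differences of -3.03 ± 0.42 and -2.70 ± 0.20, while HEY1 and the ligand DLL1 did not pass (-0.016 ± 0.19 and 0.06 ± 0.17).

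WNT and TGF-beta genes were more often lower than higher at E77 Frontal, and most BMP genes were lower or did not pass. Of 32 WNT genes 19 fell and 3 rose (median -0.94), of 27 BMP genes 12 fell and 2 rose (median -0.50), and of 19 TGF-beta and YAP genes 15 fell and 1 rose (median -1.57). The median daily log2 ratio of the TGF-beta and YAP list was -1.92, -1.96 and -0.23, so it was small on day 5. Its 15 lower calls were 12 with upper-quartile factors and with library totals. AXIN2, a feedback target of canonical WNT signalling, stood at 32.4, 78.7 and 123 CPM at E42 Anterior and at 25.3, 34.1 and 40.4 CPM at E77 Frontal. It climbed over the days in both series and was lower at E77 Frontal, with a log2 difference of -1.12 ± 0.17. SFRP4, a secreted WNT antagonist, was lower, with a log2 difference of -5.30 ± 0.66. The ligands WNT7A and WNT3 and the receptor FZD5 were the 3 that rose, by 2.00 ± 0.31, 1.76 ± 0.26 and 1.81 ± 0.24.

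BMP4, a ligand of dorsal midline and mesenchyme, stood at 42.7, 33.4 and 34 CPM and at 0.0826, 0.17 and 0.78 CPM, with a log2 difference of -6.75 ± 0.42. The receptor BMPR1B was higher by 1.2 ± 0.16 and the antagonist CHRDL1 by 0.99 ± 0.13. ID2 and ID4, immediate BMP targets, did not pass (-0.22 ± 0.24 and -0.20 ± 0.21). CCN2, the connective tissue growth factor induced by TGF-beta and YAP, stood at 2603, 614 and 28.4 CPM and at 5.7, 3.57 and 1.6 CPM. It was high at E42 Anterior on day 1 and dropped towards day 5, and the difference was -7.41 ± 0.77 (adjusted p = 7.82e-08). LTBP1, which stores latent TGF-beta in the matrix, was the one that rose (0.81 ± 0.13). In the occipital and posterior pair, by contrast, 0 of the 19 TGF-beta and YAP genes rose and 1 fell, and the pairs differed in the negative direction for 9 of them (15 without E42 Anterior day 1).

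Genes of the insulin-like growth factors and of retinoids were lower or did not pass. Of 13 genes of the insulin-like growth factor system 9 fell and 0 rose (median -1.16), and of 17 genes of retinoid metabolism 10 fell and 0 rose (median -0.94). IGF2, a fetal growth factor, stood at 1495, 1710.0 and 3682 CPM at E42 Anterior and at 1.78, 2.13 and 2.09 CPM at E77 Frontal. H19, the imprinted RNA beside it, stood at 2680.1, 1526 and 3822 CPM and at 92.3, 76.3 and 66.7 CPM. Both were lower in every library of the older series, with log2 differences of -10.14 ± 0.51 and -5.08 ± 0.41. ALDH1A2, the enzyme that makes retinoic acid in meninges, stood at 6.8, 16.2 and 211 CPM and at 0.165, 0.255 and 0.0821 CPM, and RDH10, the step before it, was lower, with a log2 difference of -3.68 ± 0.17. IGFBP2 and IGFBP3, binding proteins that had the highest levels among those not passing, differed by -0.35 ± 0.17 and 0.25 ± 0.53.

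Receptors and effectors through which cytokines drive astrocyte formation were more often higher than lower. Of 14 listed, 8 rose and 1 fell (median 0.31), against 26.6% and 28.2% of all genes. The count of 8 moved with the processing. It was 5 without E42 Anterior day 1 or without E77 Frontal day 1. Without day 1 in any series it was 4, not far from the 26.6%. With DESeq2 size factors, with the DESeq2 Wald test or in the 12 stem libraries alone it was 6. OSMR, the oncostatin M receptor, stood at 72.5, 73.9 and 61 CPM at E42 Anterior and at 161, 126 and 136 CPM at E77 Frontal, higher without overlap by 1.03 ± 0.10. LIFR was higher by 0.72 ± 0.12 and the ligand CNTF by 1.13 ± 0.16, while the kinase JAK1 was lower, with a log2 difference of -1.0 ± 0.086. EGFR, the receptor that rises in late progenitors, did not pass at 175, 123 and 140.5 CPM and 105, 216 and 218 CPM (0.23 ± 0.24, adjusted p = 0.426). It was lower at E77 Frontal on day 1 only, and it passed as higher without day 1 in any series (0.69, adjusted p = 0.0103 from edgeR). It differed in the other pair by 2.04 ± 0.24 (adjusted p = 9.26e-07), and the pairs differed by -1.81 (adjusted p = 0.000425), or by -1.02 without day 1 in any series. NRG1, a ligand of ERBB receptors, was higher by 1.19 ± 0.19. In the hedgehog pathway 2 of 11 genes rose and 4 fell, among them the target GLI1, with a log2 difference of -4.41 ± 0.48. The co-receptors BOC and CDON were higher by 1.15 ± 0.15 and 0.73 ± 0.13.

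Stress and sterol genes were mostly lower, while glycolytic genes went both ways. Of 14 genes of the unfolded protein and amino acid responses 13 fell and 0 rose (median -1.41). ATF4, the transcription factor of the integrated stress response, stood at 419.9, 444 and 448 CPM and at 167, 158 and 184 CPM, and HSPA5, the chaperone of the endoplasmic reticulum, at 717, 752 and 473 CPM and at 243, 220.2 and 235 CPM. Neither overlapped, and the differences were -1.37 ± 0.14 and -1.45 ± 0.14. ASNS, the asparagine synthetase that ATF4 induces, was lower, with a log2 difference of -4.27 ± 0.52, and CHAC1 (-4.44 ± 0.41). In the other pair 1 of the 14 rose and 3 fell. Of 18 genes of cholesterol synthesis 10 fell and 0 rose (median -0.54). INSIG1, a feedback regulator of sterol synthesis, stood at 116, 146 and 57.7 CPM and at 53.4, 44 and 38.2 CPM, with a log2 difference of -1.17 ± 0.20. The E42 Anterior level dropped on day 5, and the list's median daily ratio was -0.66, -0.98 and -0.005. Of 22 glycolytic and hypoxia genes 4 rose and 5 fell (median -0.033, positive with upper-quartile factors and library totals). Without E42 Anterior day 1 only 1 rose, and without E42 Anterior day 3 only 2 fell. Of 18 interferon and antigen presentation genes 7 rose and 4 fell (median 0.28), against 26.6% and 28.2% of all genes. Without E77 Frontal day 5 only 2 fell. Of 9 housekeeping genes 8 fell (median -0.31), 5 without E77 Frontal day 3, 4 with upper-quartile factors and 3 with library totals.

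SPP1, the secreted phosphoprotein osteopontin, headed the 15 largest rises. It stood at 12.9, 14.3 and 11.5 CPM at E42 Anterior and at 863, 1011 and 1262 CPM at E77 Frontal, higher by 6.30 ± 0.75 (adjusted p = 4.82e-07). The occipital and posterior pair gave 2.95 ± 0.71, with 19.1, 113 and 326 CPM at E77 Occipital, and the pairs differed (adjusted p = 0.0111), but not without day 1 in any series (adjusted p = 0.0582). FBLN7, a fibulin, stood at 1.47, 2.15 and 1.51 CPM and at 96.1, 63.8 and 79.9 CPM, and SERPINA3, a serine protease inhibitor of reactive astrocytes, at 2.43, 2.63 and 2.75 CPM and at 101, 65 and 78.5 CPM. All of these were low in every E42 Anterior library and high in every E77 Frontal library. The rises of CNMD, B3GNT7, PRPH, CD34, SLC28A1 and BHLHE41 lay between 4.31 and 5.00, and those of COL9A3, CRYBG1, PAEP, STK32A, DCT and GRIN2A between 3.86 and 4.17. PRPH is the intermediate filament peripherin and GRIN2A a subunit of the NMDA receptor.

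Among the 15 largest falls were many connective tissue genes. ASPN, a small proteoglycan, stood at 10.6, 28.8 and 209 CPM at E42 Anterior and had 0 reads at E77 Frontal, at least 1990.4-fold lower. TNMD, the tendon protein tenomodulin, stood at 60.3, 86.4 and 49.7 CPM against 0 reads, at least 1574-fold lower, and FOXC2 at 18.3, 9 and 7.11 CPM against 0 reads, at least 275-fold lower. These 3 were absent from the counts of every E77 Frontal library. OGN, a proteoglycan of bone and meninges, was lower, with a log2 difference of -12.46 ± 0.70 and the integrin ITGA11 (-9.94 ± 0.41). PEAR1, TLL1 and CRABP1 had at most 3 reads over the E77 Frontal libraries and are given no fold. The remaining 7 were COL3A1, TBX15, TBX18, BGN, IGF2, LUM and ALX4, given above.

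The age difference of these 2 series was tested against that of the E77 Occipital and E42 Posterior libraries, which share no library with it. Of the 5536 genes higher at E77 Frontal, 2778 (50.2%) were also higher at E77 Occipital, which is 66.1% of the 4204 genes higher there. Of the 5858 lower, 2476 (42.3%) were also lower, which is 57.7% of the 4289 lower there, and 242 and 332 genes passed in opposite directions. The difference of differences passed for 2029 genes in the positive and 2535 in the negative direction, and for 1085 and 1768 without the day block. NPTX2, a secreted pentraxin of synapses, stood at 7.12, 3.08 and 2.69 CPM at E42 Anterior and at 65.9, 45.1 and 43 CPM at E77 Frontal, higher by 3.77 ± 0.39. In the occipital and posterior pair it stood at 17.3, 6.11 and 2.23 CPM and at 1.92, 0.665 and 0.0729 CPM, with a log2 difference of -3.22 ± 0.44, and the differences were 6.99 ± 0.58 apart (adjusted p = 5.72e-09). E77 Frontal was the highest of the 4 series. SV2C, a synaptic vesicle protein, was at 55.7, 60.7 and 81.3 CPM at E77 Frontal and no higher than 15 CPM in the 9 other stem libraries. EFEMP1, an extracellular fibulin, was at 53.1, 64.4 and 57.4 CPM and MMRN1, a multimerin, at 18.1, 21.8 and 19.5 CPM there. CD34, a sialomucin of vessels and progenitors, was at 95.9, 31.5 and 29.9 CPM, highest on day 1. The term of MMRN1 did not pass without E42 Posterior day 5 (2.86, adjusted p = 0.412 from edgeR), nor that of CD34 without day 1 in any series (2.38, adjusted p = 0.0502). Among the 6 largest negative terms were those of ADAMTS2 (-8.94 ± 0.65), a procollagen peptidase, TMEM119 (-8.71 ± 1.05) and the homeodomain factor SIX2 (-8.48 ± 0.65).

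Whether the difference holds after FGF2 was asked with the terminal-phase libraries of the same 2 series, taken on days 11, 14 and 17 (and 20 at E77 Frontal). There 3814 genes (18.3%) were higher at E77 Frontal and 4120 (19.8%) lower. Of the genes higher in the stem phase 2453 were again higher and 124 lower, and of those lower 2884 were again lower and 166 higher. The stem difference was above the terminal one for 1824 genes (8.77%) and below it for 2164 (10.4%), and without the day block for 981 and 1165. Of the outer radial glial genes 5 of 12 were among the former, MOXD1 by 2.16 ± 0.28 and HOPX by 1.04 ± 0.25. In the terminal phase 13 of 16 astrocyte genes were higher and 0 lower, and the stem difference was above the terminal one for 1 and below it for 6 (3 without E42 Anterior day 17). The Notch list was below its terminal difference for 11 of 21 and above for 1, and the oligodendrocyte list for 9 and 1 of 14, SOX10 (-5.83 ± 0.61) and MBP (-5.30 ± 0.67). Mitotic genes were above it for 10 of 20, with MKI67 by 0.91 ± 0.19, but for 2 without E42 Anterior day 17 and for 1 without the day block. The terms of MKI67 and HOPX did not pass without the block. Among WNT genes 12 of 32 were above and 2 below.

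Among the genes with the largest phase terms WFIKKN2, a secreted protease inhibitor, stood at 0.128, 0.483 and 1.03 CPM at E42 Anterior in the stem phase and at 62.8 ± 18.7 CPM (mean and SD, n = 3) in its terminal phase, and at E77 Frontal below 1 CPM in both. Its term was 7.49 ± 0.96 (adjusted p = 7.27e-06). NPTX2 had a term of 6.54 ± 0.54 and STRA6, the retinol transporter, of 5.87 ± 1.87. That of STRA6 did not pass without E42 Anterior days 3, 11, 14 or 17, or without E77 Frontal days 1, 11 or 17, taken one at a time. ACAN, the proteoglycan aggrecan, was the reverse, at 400.1, 119 and 68.2 CPM in the stem phase and 2.89 ± 0.879 CPM in the terminal phase at E42 Anterior, with a term of -7.55 ± 0.81 (adjusted p = 2.11e-06). SULF1, a heparan sulfatase, had a term of -6.36 ± 0.78 and CD93 one of -7.77 ± 1.11. TNMD stood at 0.921 ± 0.641 CPM in the terminal phase at E42 Anterior, far below its stem levels given above (adjusted p of the term 2.45e-05).

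Changes over days 1 to 5 were compared as slopes, with 4 residual degrees of freedom. In a fit of straight lines to the 12 stem libraries, the slope of E77 Frontal passed as above that of E42 Anterior for 98 genes (0.471%) and below for 104 (0.5%), 0.971% in all, with 1976 at an unadjusted p under 0.05. Each line rests on 3 libraries, and without E77 Frontal day 1 or day 5 no gene passed in either direction, those named below included. SEMA3D, a guidance cue, stood at 48.9, 24.7 and 5.9 CPM at E42 Anterior and at 5.54, 12.2 and 12.9 CPM at E77 Frontal, and PRUNE2 at 209.6, 75.8 and 27 CPM and 17.5, 22.2 and 29.1 CPM. Each dropped over the days in the younger series and climbed in the older, so that the series met or crossed, and their slopes differed by 1.05 ± 0.14 and 0.92 ± 0.099 log2 units per day. SIDT1, FSTL3, SH2D3C and BMP4 had slope differences from 0.93 to 1.09, with SH2D3C at 0.60 without E42 Anterior day 5 and BMP4 at 0.58 without E77 Frontal day 5. PTGFR, a prostaglandin receptor, climbed at E42 Anterior over 3.45, 28 and 83 CPM against 0.785, 0.978 and 0.328 CPM, with a slope difference of -1.38 ± 0.21 (adjusted p = 0.0106). The matrix protease ADAMTS14 (-1.22 ± 0.097), ECM2 (-1.13 ± 0.19), the WNT5A receptor ROR1 (-1.05 ± 0.20), MMP25 (-1.01 ± 0.19) and ARHGAP20 (-0.98 ± 0.15) shared that direction. ROR1 was at -0.53 without E42 Anterior day 1 and at -1.59 without its day 5, and MMP25 at -0.19 without E77 Frontal day 1. Among the listed genes that passed, OLIG1 and OLIG2 had slopes higher at E77 Frontal by 0.51 ± 0.071 and 0.46 ± 0.06, where the E42 Anterior levels dropped by the day.

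**Figure D5:**
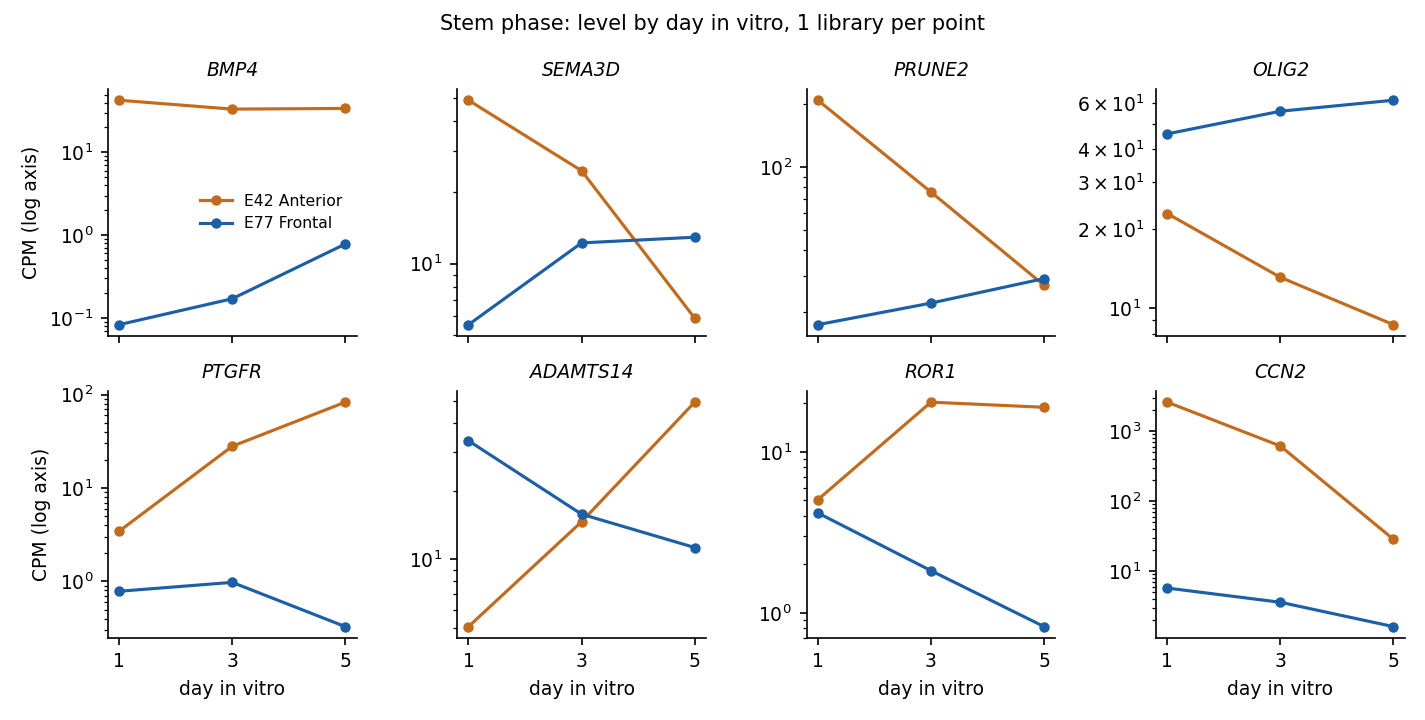
CPM (log axis) of 8 genes on days 1, 3 and 5 at E42 Anterior (orange) and E77 Frontal (blue), 1 library per point. SEMA3D, PRUNE2 and OLIG2 drop over the days at E42 Anterior, PTGFR and ADAMTS14 climb there, and CCN2, whose slope difference did not pass, drops in both series.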

How the data were processed

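The authors deposited 1 table of raw counts per gene for the 38 libraries and RPKM values made from such counts, and per the submitters' processing notes STAR and featureCounts were used. Their versions, the genome build and the annotation are not given in the sources used here. The deposited RPKM values served only for alternative fits. Whether counting used strand is not stated, so a gene and an overlapping or antisense partner may share reads.

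Groups came from the sample titles. Of 34619 genes, 20794 passed filterByExpr and 13825 were not tested. edgeR 4.0.16 (R 4.3.3) fitted 12 groups of series and phase with TMM scaling, the culture day as a block and a robust quasi-likelihood test (19 residual degrees of freedom). The day pairs the libraries because same-numbered libraries share their day. Their deviations from the group means correlated by 0.184, 0.0132 and 0.199 on days 1, 3 and 5. Fits without the block and with the other settings were alternatives, with limma 3.58.1 and DESeq2 1.42.0. The edgeR fits and tests of the main, pair, phase and slope comparisons were run on simulated counts with known changes. The limma and DESeq2 fits were not.

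A fold is a lower bound against 3 counts over a group at 0, and no fold is given where a group had 1 to 3 counts. Members and lists were chosen with earlier results of these data known. Named genes were the 15 largest changes per direction, of one sign on all 3 days and with at least 10 CPM in the higher series, the 6 largest per direction in other comparisons, and up to 6 passing and 2 not passing per list. The following were chosen after their values were seen: ATF4, AXIN2, BMPR1B, CHRDL1, COL4A1, EMX2, FABP7, FEZF2, FGFR1, FGFR2, FGFRL1, FN1, FZD5, GAP43, GFAP, HAPLN1, HES1, HES5, HEY1, HMGA2, HOPX, HSPA5, ID2, LHFPL3, LHX2, LTBP1, NFIB, NFIX, NOTCH1, NOTCH3, NRN1, PCNA, RORB, S100A6, SLC1A2, SOX10, SOX2, TUBB3, WNT3 and WNT7A. The symbol TUBB3 was matched by gene ID. Some results are not reported here.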

Additional observations from a re-analysis of the deposited data

Results flagged for a closer look

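The age difference between E77 Frontal and E42 Anterior differed from that between E77 Occipital and E42 Posterior for 4564 of the genes tested (21.9%), by edgeR's test of the difference itself. The 6 largest positive terms were those of NPTX2 (6.99 log2 units), EOMES (6.27), SV2C (4.91), EFEMP1 (4.81), MMRN1 (4.65) and CD34 (4.27). The 3 largest negative terms with a fold were those of ADAMTS2 (-8.94), TMEM119 (-8.71) and SIX2 (-8.48). TINAGL1, TBX15 and INHBE also passed, with adjusted p of 0.0496, 0.00556 and 0.0263 from edgeR, but have no fold because a group had 3 reads or fewer. TINAGL1 no longer passed when any 1 of the 12 libraries was left out, INHBE without E77 Frontal day 3 or day 5 or E77 Occipital day 1, and MMRN1 without E42 Posterior day 5.

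The difference between the same 2 series differed between the stem and terminal phases for 3988 genes (19.2%), again by the test of the difference. WFIKKN2 (7.49 log2 units), NPTX2 (6.54) and STRA6 (5.87) had the largest positive terms with a fold, and CD93 (-7.77), ACAN (-7.55) and SULF1 (-6.36) the largest negative ones. WIF1, GDF10, C7, TNMD, PCP4 and CRABP1 passed without a fold, with adjusted p of 0.00828, 0.00138, 0.0282, 2.45e-05, 6.67e-05 and 9.40e-07 from edgeR. GDF10 did not pass without E42 Anterior day 1 or E77 Frontal day 1, C7 without E77 Frontal day 1 or day 14, and STRA6 when any 1 of 7 libraries, named above, was left out.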

How the results depend on the processing

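The main comparison gave 5536 genes higher and 5858 lower, and the day block mattered less to it than to the other comparisons. Without the replicate block, which pairs the libraries by day, it gave 4687 and 4954, the difference of the 2 age differences 1085 and 1768, and the stem minus terminal term 981 and 1165.

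Leaving out 1 library at a time gave 4323 to 5179 and 5219 to 5713 genes in the main comparison. The stem minus terminal term gave 1141 to 1897 higher genes, with 1141 without E77 Frontal day 1, 1156 without its day 3 and 1174 without its day 17. The slope difference gave 0 to 173 higher and 0 to 161 lower. It gave 0 and 0 without E77 Frontal day 1 or day 5, 26 and 17 without E42 Anterior day 5, 173 and 161 without its day 3, 60 lower without its day 1, and 60 and 61 without E77 Frontal day 3.

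Library totals alone gave 3642 lower in the main comparison, 4140 higher between the pairs and 1368 lower between the phases. limma on log2(RPKM + 1) gave 3187 lower, 4064 higher and 1380 lower in the same order, and with 0.1 added 3263, 4114 and 1322. Without a filter, limma on log2(RPKM + 1) gave 8407 higher and 3859 lower in the main comparison, 4190 higher between the pairs and 3062 higher between the phases. Fits of only the libraries compared gave 970 higher and 1268 lower between the phases, and the 12 stem libraries alone 1206 higher between the pairs. Slope calls were 494 higher and 423 lower without the count filter, 206 and 174 from only the libraries compared, 250 and 196 with DESeq2, 37 and 55 with limma on log2(RPKM + 1), 0 and 0 with 0.1 added, and 69 lower without the RPKM filter. In limma on log2(RPKM + 1) 5 early progenitor and 10 WNT genes were lower, against 9 and 19. The cause of these shifts was not tested.

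For the 201 genes named and tested, 3460 of 3604 combinations of a gene and 1 of 18 settings kept their call in the main comparison, 108 no longer passed, 35 came to pass and 1 reversed. The reversed one was ADAMTS14, which did not pass at -0.13 and came to 1.23 without E42 Anterior day 5, with a lowest value of -1.03 among the settings without 1 library. The bearing of the lower read totals at E77 Frontal on these calls was not tested, and genes with a few reads per library, such as CDH5, have imprecise levels.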
